A study of Mus musculus with 2 samples.

Results

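The 34 genes described here encode the enzymes and transporters of glycolysis, the subunits and regulators of the hypoxia-inducible factors (HIFs), and well-known targets of these factors. They were chosen by gene symbol, and each of the 34 symbols matched 1 of the 32285 genes in the count tables. Glycolysis splits glucose into pyruvate, which is either burned in mitochondria or turned into lactate and exported. When oxygen is short, the HIF alpha subunits escape the prolyl hydroxylases that mark them for destruction, pair with their beta partner and switch on genes for glucose uptake, glycolysis, lactate export and blood vessel signalling. Neutrophils and inflammatory macrophages are known for heavy use of glycolysis, and HIF-2 alpha, encoded by Epas1, for its high expression in endothelium.

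Mouse carotid arteries were profiled cell by cell with 3′-end RNA sequencing and unique molecular identifiers (UMIs). They were taken 18 h after an endothelial injury by temporary ligation. The control library had the genotype CDH5 Cre- Cx43fl/fl and the knockout library CDH5 Cre+ Cx43fl/fl. Both therefore carried the floxed gene for connexin 43 (Gja1), and their genotypes differed by an inducible Cre recombinase under the endothelial Cdh5 promoter. Each library was made from pooled arteries of 1 genotype, opened lengthwise and digested briefly to favour endothelium, then passed through red cell lysis and freezing. With 1 library per group, no test between the groups was possible, and every interval given covers counting error only, at 95%.

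The control library held 7298 barcodes and the knockout library 8315, and 6376 and 7236 cells were kept. Of these barcodes 17 occurred in both libraries, and 11 of those were kept in both. The members' share of all UMIs was 0.535% (control) and 0.497% (knockout). Classes were named from marker genes, without the members among the clustering genes: endothelial-like (EC-like) cells numbered 480 control and 555 knockout, smooth muscle-like (SMC-like) 415 and 547, neutrophil-like 1107 and 1299, monocyte/macrophage-like 1569 and 1906, fibroblast-like 1402 and 1620, dendritic-like 151 and 157, T/NK-like 128 and 162, and B-cell-like 101 and 170. EC-like cells held 11 of 12 endothelial markers in at least 10% of control cells and 12 of 12 in the knockout library. A cluster of 756 control and 485 knockout cells, led by Fabp5 and Spp1, held 13 of 14 monocyte/macrophage markers in control cells, but the platelet genes Ppbp and Pf4 were among its leading genes. It was therefore left without a cell type name and kept apart. Median depth was 1850 and 1668 UMIs per neutrophil-like cell and between 6047 and 8720 in EC-like, SMC-like and fibroblast-like cells. Cells with Xist and no Y-linked UMIs, used below as a subset by sex, were a smaller share of every class in the knockout library. They numbered 221 control and 153 knockout EC-like cells, 638 and 534 fibroblast-like cells and 106 and 74 dendritic-like cells. The libraries may thus differ in more than Cre, and whether the pools differed in sex was not tested.

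Levels are given as CPM, the UMIs of a gene scaled to the same total in every class and library. The targeted gene, Gja1, stood at 22.4 CPM [18.0 to 27.4] in control EC-like cells and 31.6 CPM [26.4 to 37.4] in those of the knockout library. It was not lower there. The deleted part of the gene is not given in the sources used here, so a 3′ tag may lie outside it and checks nothing. The groups are therefore called the library labelled control and the library labelled knockout, and each pair of values below is given in that order.

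Because HIF binds DNA at short motifs, the promoters of the members were searched for its core letters, ACGTG and GCGTG, on both strands, in the 250 bases before each gene start in RefSeq (build GRCm38.p6). Entries were found for 31 of the 34 members, with 44 windows in all, and for Slc2a3, Ndrg1 and Epas1 there was none. ACGTG occurred before 18 of the 31 members, GCGTG before 20 and at least 1 of them before 27; Gpi1, Tpi1, Eno2 and Mif held neither. By windows, 47.7% of the members' windows held ACGTG and 54.5% GCGTG, against 16.6% and 28.2% of all 32851 windows of this length. At least 1 of the motifs stood in 79.5% of the members' windows and in 38.6% of all windows. A match is a description of the letters, not of binding. Both motifs contain the letters CG, and the windows of all genes were not matched to those of the members for base content. The members include genes chosen as HIF targets, so these shares are no independent evidence. Overlapping windows of a gene, as for Aldoa and Eno1, can hold the same motif letters and count them more than once. The upstream windows of 4 members that the results below return to are shown (lactate production, lactate export, HIF feedback and a secreted peptide), 5′ to 3′ on the gene's own strand, with the motif letters of either strand in capitals. Letters that read ACGTG on both strands count as 1 place.
Ldha, chr7:46845554-46845803, plus strand: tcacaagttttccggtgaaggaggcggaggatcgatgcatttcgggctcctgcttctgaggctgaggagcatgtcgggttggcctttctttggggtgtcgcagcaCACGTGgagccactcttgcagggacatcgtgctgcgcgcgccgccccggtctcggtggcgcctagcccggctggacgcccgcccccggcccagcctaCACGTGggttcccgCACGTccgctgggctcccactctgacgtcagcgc
Slc16a3, chr11:120948817-120949066, plus strand: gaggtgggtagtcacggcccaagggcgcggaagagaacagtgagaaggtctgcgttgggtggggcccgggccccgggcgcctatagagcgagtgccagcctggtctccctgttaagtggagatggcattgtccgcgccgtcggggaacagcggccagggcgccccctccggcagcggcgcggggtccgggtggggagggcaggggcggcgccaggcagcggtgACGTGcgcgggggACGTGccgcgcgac
Egln3, chr12:54203875-54204124, minus strand: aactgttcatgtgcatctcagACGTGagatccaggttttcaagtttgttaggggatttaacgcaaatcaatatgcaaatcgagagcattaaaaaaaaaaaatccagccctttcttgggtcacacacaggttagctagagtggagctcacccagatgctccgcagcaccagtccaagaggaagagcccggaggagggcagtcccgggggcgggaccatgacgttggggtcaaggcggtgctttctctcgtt
Adm, chr7:110627407-110627656, plus strand: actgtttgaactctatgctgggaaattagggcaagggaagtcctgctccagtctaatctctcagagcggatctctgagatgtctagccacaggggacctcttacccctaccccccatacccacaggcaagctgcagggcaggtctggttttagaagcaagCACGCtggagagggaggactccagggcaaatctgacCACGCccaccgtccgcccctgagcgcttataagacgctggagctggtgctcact
Ldha, which makes lactate from pyruvate, held 3 ACGTG places in this window, one of its 2 RefSeq windows. Slc16a3, the lactate exporter MCT4, held 2, and Egln3, a prolyl hydroxylase of HIF, held 1. Adm, which encodes the vasodilator peptide adrenomedullin, held 2 GCGTG places and no ACGTG. At least 2 ACGTG places were found in 13.6% of the members' windows and in 1.95% of all windows.

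Levels of a gene were compared across the 9 classes as descriptions with no test, since the same cells defined the classes. The highest class was the same in both libraries for 24 of the 34 members. It was neutrophil-like for 6 members, the Fabp5/Spp1-led cluster for 5, EC-like for 3, monocyte/macrophage-like for 3, fibroblast-like for 2, T/NK-like for 2, dendritic-like for 2 and SMC-like for 1. Scaled without mitochondrial, ribosomal and haemoglobin genes and the 20 most abundant others, 29 members had the same highest class in both libraries. All members together reached 8297 and 7453 CPM in monocyte/macrophage-like cells, 7601 and 7991 in the Fabp5/Spp1-led cluster and 6912 and 6435 in dendritic-like cells. Neutrophil-like cells stood at 4117 and 3918 CPM, fibroblast-like cells at 3861 and 3596, EC-like cells at 3071 and 2860 and SMC-like cells at 2995 and 2911. T/NK-like cells had 2193 and 1857 CPM and B-cell-like cells 1448 and 1186. Markers of other classes stood in a class at a median of 6.49% and 6.48% of their level in the library profile. This was taken as the share of free RNA, so small values in a class may be carried over. The pairs of markers and classes behind this median spread widely. T/NK markers stood at 211% and 246% of the profile in the Fabp5/Spp1-led cluster, so a share can include a class's own transcripts. Endothelial markers stood at 21.6% and 20.4% of the profile in SMC-like, 36.5% and 47.1% in T/NK-like and 46.5% and 51.9% in B-cell-like cells, so values given below for free RNA, all at the median share, can be too low in such classes. The counting does not tell transcripts of Eno1 from its near-identical copy Eno1b with certainty, and likewise for the pseudogenes of Gapdh, Pgk1, Ldha and Aldoa, so these levels are uncertain.

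**Figure D1:**
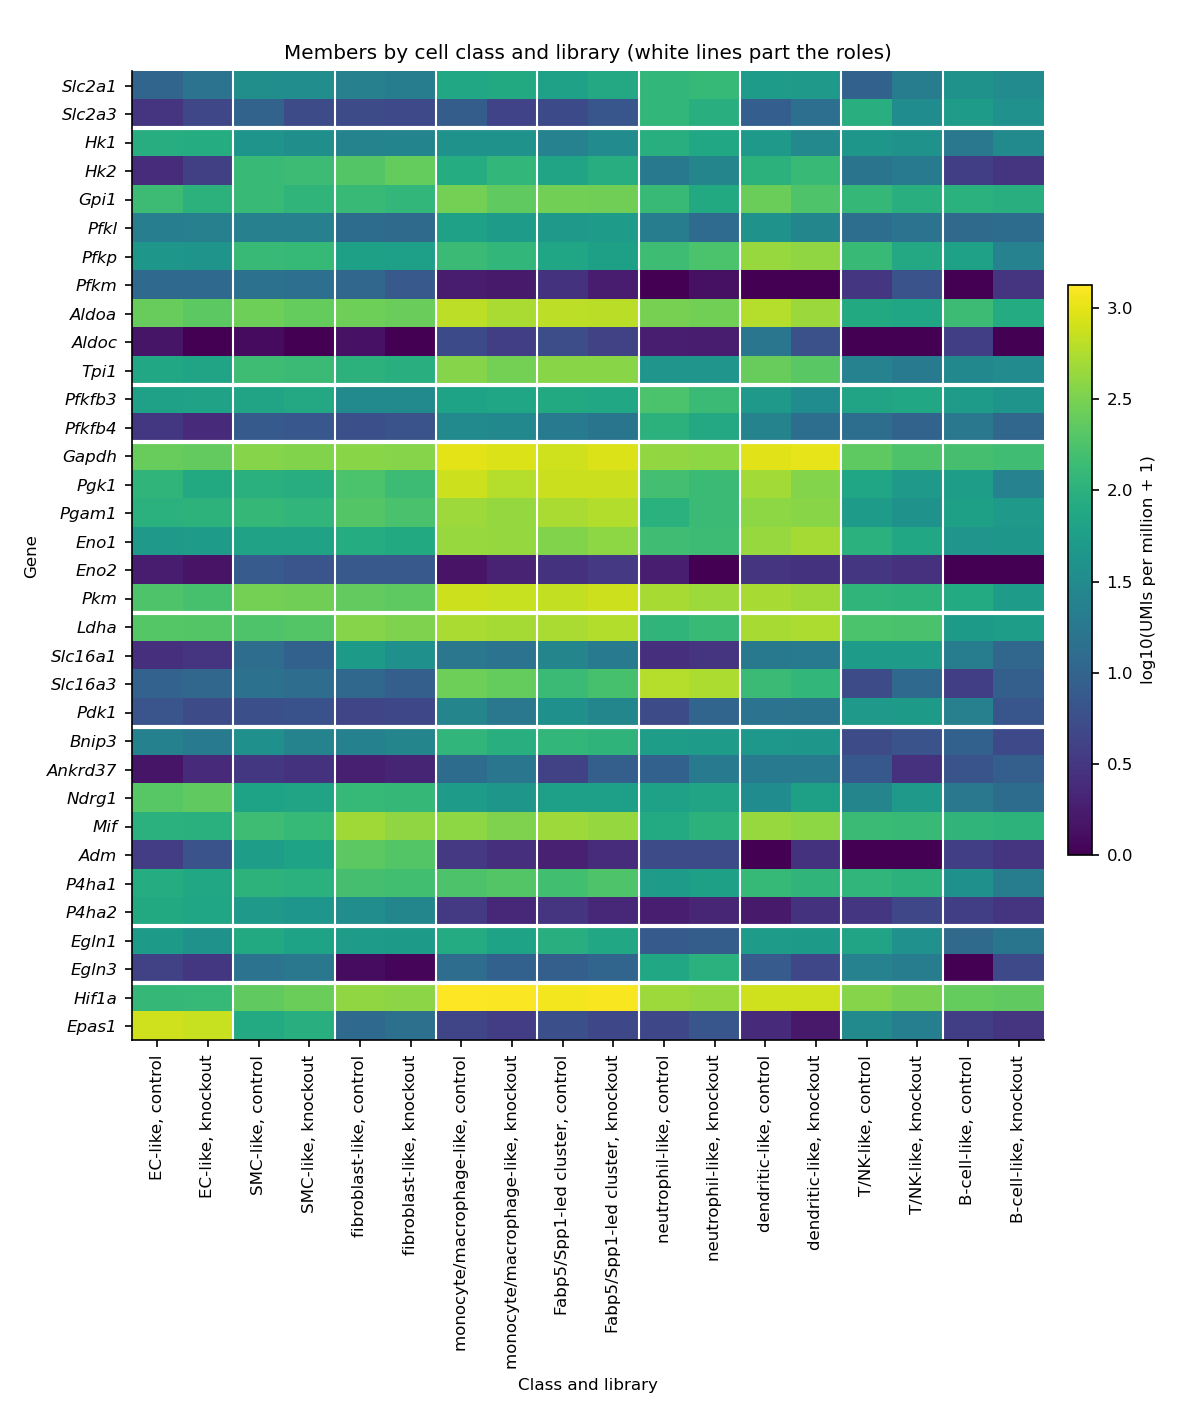
Level of each member (rows, ordered by role) in the 9 cell classes (columns), in log10(CPM + 1). The library labelled control and the library labelled knockout are neighbouring columns within each class. Epas1 is highest in EC-like cells, Slc16a3 in neutrophil-like cells, and most lower glycolysis enzymes in monocyte/macrophage-like and dendritic-like cells and the Fabp5/Spp1-led cluster.

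Glucose enters through Slc2a1 (GLUT1) and Slc2a3 (GLUT3), and both stood highest in neutrophil-like cells. Slc2a1 reached 116 and 122 CPM there, 71.7 and 78.6 in monocyte/macrophage-like cells, 33.6 and 33.1 in SMC-like cells and 9.58 and 14.5 in EC-like cells. Slc2a3 reached 116 and 92.2 CPM in neutrophil-like cells, 92.7 and 32.2 in T/NK-like cells and 52.6 and 37.0 in B-cell-like cells. In the other classes, Slc2a3 lay between 1.97 and 12.9 CPM. The order of neutrophil-like over T/NK-like cells for Slc2a3 was within counting error in the control library.

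The hexokinases, which trap glucose in the cell, divided the vessel wall. Hk1 stood at 87.7 CPM [78.8 to 97.3] and 85.3 CPM [76.6 to 94.6] in EC-like cells, at 40.2 and 35.2 in SMC-like cells and at 23.9 and 24.6 in fibroblast-like cells. Hk2, the inducible form, ran the other way, with 1.47 CPM [0.541 to 3.21] and 2.89 CPM [1.49 to 5.05] in EC-like cells, 126 and 137 in SMC-like cells and 194 and 240 in fibroblast-like cells. Neutrophil-like cells shared the pattern of EC-like cells, with Hk1 at 89.9 and 73.0 CPM and Hk2 at 17.3 and 25.1 CPM.

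Among the phosphofructokinases, which commit sugar to glycolysis, the 3 forms had different leading classes. Pfkl, the liver form, was highest in monocyte/macrophage-like cells at 61.3 and 52.9 CPM. The Fabp5/Spp1-led cluster was next at 47.8 and 52.8, within counting error in the knockout library. Pfkp, the platelet form, was highest in dendritic-like cells at 438 CPM [405 to 473] and 401 CPM [371 to 433], followed by neutrophil-like cells at 143 and 172. Pfkm, the muscle form, lay at 13.9 and 12.9 CPM in SMC-like cells, at 10.8 and 10.6 in EC-like cells and at most at 1.84 in monocyte/macrophage-like and neutrophil-like cells and the Fabp5/Spp1-led cluster. The phosphofructokinase-2 genes Pfkfb3 and Pfkfb4, whose products set the level of the activator fructose-2,6-bisphosphate, both led in neutrophil-like cells. Pfkfb3 stood at 175 and 135 CPM there and at 59.9 and 61.7 in EC-like cells. Pfkfb4 stood at 101 and 76.5 CPM in neutrophil-like cells and at 2.21 and 1.45 in EC-like cells.

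Gpi1, Aldoa and Tpi1, the other enzymes of the upper pathway, were highest in monocyte/macrophage-like cells or the Fabp5/Spp1-led cluster. Aldoa, an aldolase, stood at 659 and 536 CPM in monocyte/macrophage-like cells, 645 and 641 in that cluster and 252 and 219 in EC-like cells. Tpi1, triosephosphate isomerase, stood at 364 and 300 CPM in monocyte/macrophage-like cells, 74.7 and 66.2 in EC-like cells and 41.3 and 41.6 in neutrophil-like cells. Neutrophil-like cells thus had the highest transporter and Pfkfb levels but low Tpi1. Aldoc, the brain-type aldolase, did not exceed 15.8 CPM in any class.

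The 6 members of the lower pathway (Gapdh, Pgk1, Pgam1, Eno1, Eno2 and Pkm), which yield ATP and pyruvate, summed to 3447 and 3086 CPM in monocyte/macrophage-like cells, 3114 and 3405 in the Fabp5/Spp1-led cluster and 2812 and 2725 in dendritic-like cells. Neutrophil-like cells had 1336 and 1270 CPM and fibroblast-like cells 1061 and 982. The sum was 939.5 and 894 CPM in SMC-like cells and 687.5 and 634 in EC-like cells. Pgk1, phosphoglycerate kinase, stood at 778 and 592 CPM in monocyte/macrophage-like cells and at 109 and 77.6 in EC-like cells. Eno1, an enolase, stood at 440 and 425 CPM in monocyte/macrophage-like cells and at 46.9 and 51.1 in EC-like cells. Eno2, the neuronal enolase, reached only 6.82 and 5.62 CPM in SMC-like cells and 6.48 and 6.49 in fibroblast-like cells. Pkm, pyruvate kinase, was 777 and 732 CPM in monocyte/macrophage-like cells and 520 and 468 in neutrophil-like cells.

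Ldha stood at 537 and 584 CPM in the Fabp5/Spp1-led cluster, 536 and 500 in monocyte/macrophage-like cells, 525 and 557 in dendritic-like cells, 364 and 335 in fibroblast-like cells and 109 and 132 in neutrophil-like cells. The first 3 classes lay close together, and scaled without the most abundant genes its highest class was dendritic-like. The lactate carriers Slc16a1 (MCT1) and Slc16a3 (MCT4) had different leaders. Slc16a3 reached 601 CPM [570 to 633] and 549 CPM [521 to 578] in neutrophil-like cells, 271 and 240 in monocyte/macrophage-like cells and 135 and 161 in the Fabp5/Spp1-led cluster. In EC-like cells it stood at 8.6 and 9.63 CPM, close to the 8.13 and 7.69 CPM that free RNA would give at the median share. Slc16a1 stood at 52.7 and 51.9 CPM in T/NK-like cells, 49.3 and 36.3 in fibroblast-like cells and 1.69 and 1.96 in neutrophil-like cells. The order of T/NK-like over fibroblast-like cells was within counting error in both libraries. Thinned to 1000 UMIs per cell, 42.0% and 35.3% of neutrophil-like cells had a Slc16a3 UMI (55.7% and 47.7% before thinning), against 0.704% and 1.21% of EC-like cells, whose median depth was 6324 and 6047 UMIs. Thinning left out 293 and 383 neutrophil-like and 54 and 58 EC-like cells as too shallow. Pdk1, which keeps pyruvate out of mitochondria, was highest in T/NK-like cells at 48.5 and 50.1 CPM. The Fabp5/Spp1-led cluster came next at 36.5 and 25.9 CPM, within counting error in the control library. The T/NK-like class included a cluster of 45 and 54 cells led by Arpp21, Themis and Myb, which was not set apart in these levels.

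The HIF alpha genes marked different compartments. Hif1a, which encodes HIF-1 alpha, reached 1337 CPM [1315 to 1359] and 1268 CPM [1249 to 1288] in monocyte/macrophage-like cells. The Fabp5/Spp1-led cluster came next at 1186 and 1231 CPM, within counting error in the knockout library. Dendritic-like cells had 800 and 792 CPM. Neutrophil-like cells had 468 and 425 CPM, fibroblast-like cells 404 and 383 and SMC-like cells 229 and 265. EC-like cells had 121 and 123 CPM, the lowest of the 9 classes in both libraries. Epas1 stood at 802 CPM [775 to 830] and 730 CPM [705 to 757] in EC-like cells and 81.4 and 92.3 in SMC-like cells. T/NK-like cells held 29.5 and 21.5 CPM, from 14 and 12 UMIs, and endothelial markers stood in these cells at 36.5% and 47.1% of their level in the library profile. Only 1 of the 12 endothelial markers was found in at least 10% of T/NK-like cells in each library, so this share can rest on few genes. The Epas1 counts there were not told apart from endothelial RNA carried over. In each other class, Epas1 was at most 13.1 CPM, where free RNA at its median share would give 5.71 and 5.14. Thinned to 1000 UMIs, 52.3% and 51.9% of EC-like cells had an Epas1 UMI (84.6% and 84.3% before thinning), against 0.26% and 0.213% of monocyte/macrophage-like cells, whose median depth was 6111 and 6542 UMIs.

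**Figure D2:**
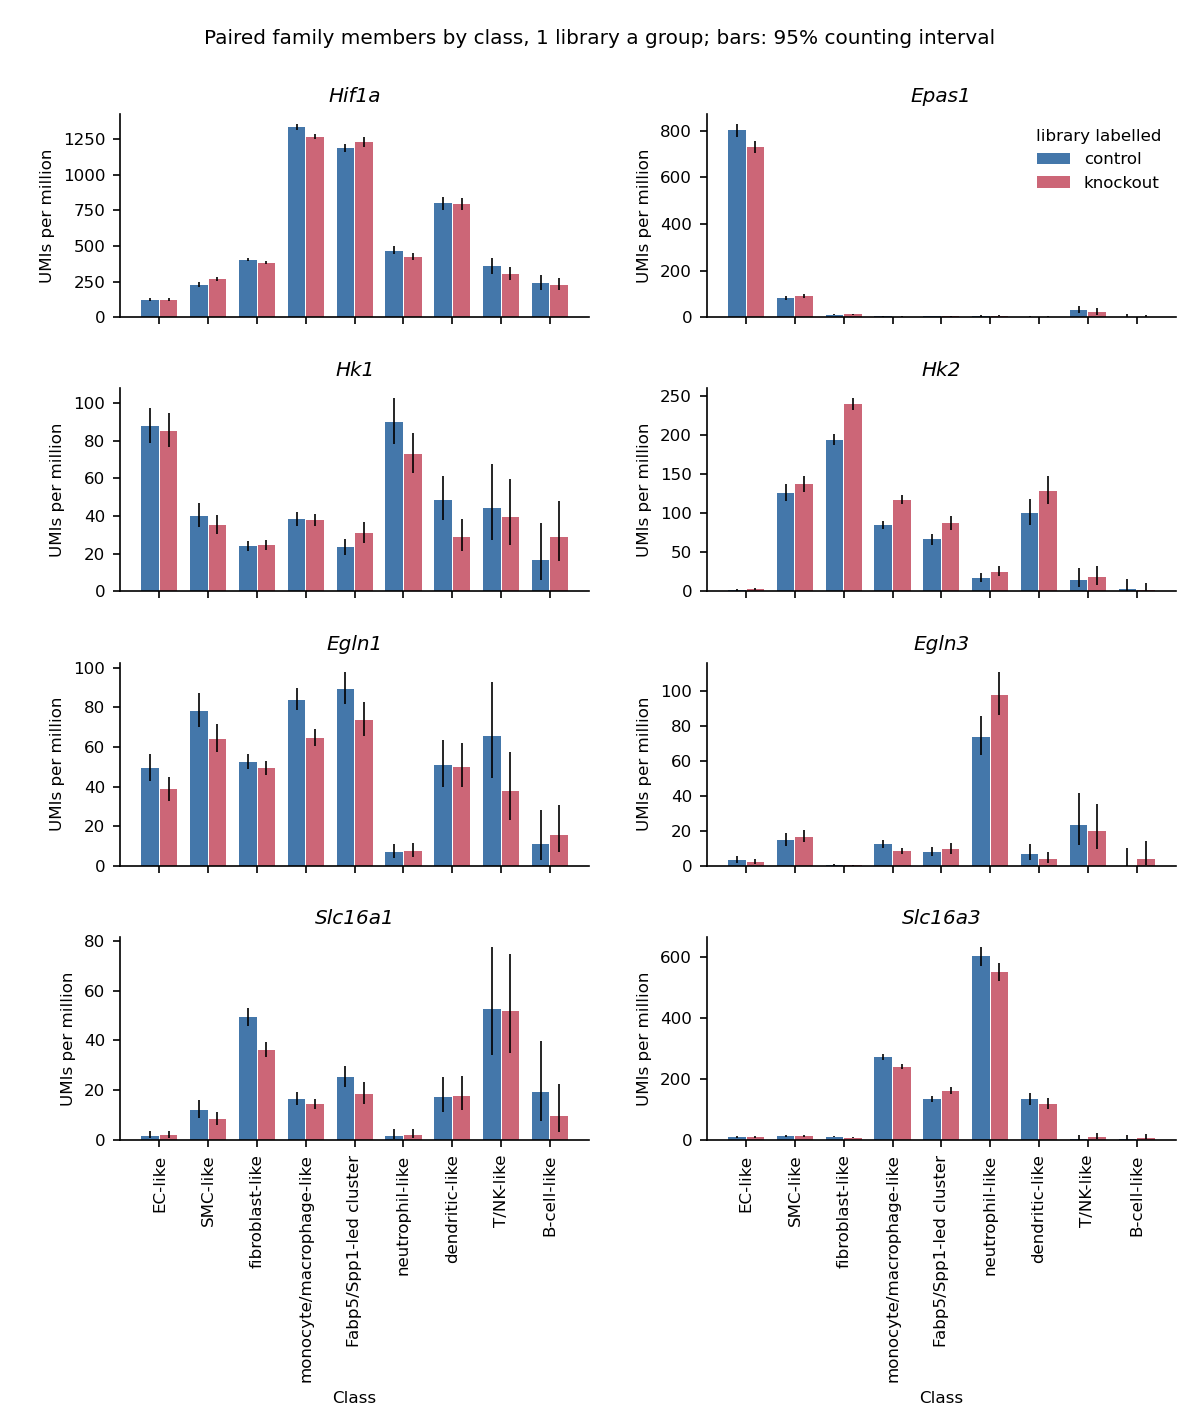
Levels in CPM of 4 pairs of members with related products, by cell class, for the library labelled control and the library labelled knockout; bars start at 0 and error lines are 95% counting intervals. Epas1 stands at 802 and 730 CPM in EC-like cells and Hif1a at 1337 and 1268 CPM in monocyte/macrophage-like cells, and Slc16a3 leads in neutrophil-like cells.

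The prolyl hydroxylases of HIF did not follow this division. In both libraries, neutrophil-like cells had the lowest Egln1 and the highest Egln3 level of all classes. Egln1 (PHD2), the main oxygen sensor of most tissues, lay between 38.5 and 89.5 CPM in EC-like, SMC-like, fibroblast-like and monocyte/macrophage-like cells and the Fabp5/Spp1-led cluster. In neutrophil-like cells it stood at 6.75 and 7.46 CPM. Egln3 (PHD3), itself a HIF target, stood at 73.8 CPM [63.3 to 85.6] and 97.7 CPM [86.0 to 111] in neutrophil-like cells, 23.2 and 19.7 in T/NK-like cells, 14.6 and 16.7 in SMC-like cells and 0.276 and 0.13 in fibroblast-like cells.

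Of the other HIF targets, Ndrg1, a stress-response gene, was highest in EC-like cells at 203 CPM [190 to 217] and 227 CPM [213 to 242], above 123 and 119 in fibroblast-like cells. P4ha2, a collagen prolyl hydroxylase subunit, was also highest in EC-like cells, at 77.6 CPM [69.3 to 86.7] and 69.1 CPM [61.4 to 77.6], and stood at 2.39 and 1.2 in monocyte/macrophage-like cells. P4ha1, its partner isoform, was by contrast highest in monocyte/macrophage-like cells, at 180 and 196 CPM, with 86.0 and 73.5 in EC-like cells. In the knockout library the Fabp5/Spp1-led cluster, at 185 CPM, was within counting error of that level in monocyte/macrophage-like cells. Adm reached 219 CPM [212 to 227] and 193 CPM [186 to 200] in fibroblast-like cells, 55.5 and 64.2 in SMC-like cells and 2.7 and 5.3 in EC-like cells, where free RNA would give 5.14 and 4.56. Bnip3, which acts in the removal of mitochondria, stood at 116 and 107 CPM in the Fabp5/Spp1-led cluster and 22.8 and 17.8 in EC-like cells. Mif, a cytokine, stood at 484 and 408 CPM in fibroblast-like cells and 461 and 429 in the Fabp5/Spp1-led cluster. Ankrd37 was at most 18.4 CPM in any class.

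Between the libraries, between 1 and 6 members per class differed past 1.5-fold, the limit used for "higher" and "lower" here, where members with at least 20 UMIs over both libraries were counted. Ratios are log2 values of the library labelled knockout over the library labelled control. In EC-like cells, the class that Cre targets, 3 of 28 counted members were higher and 0 lower, while 4.45% of all counted genes were higher and 6.17% lower. The median ratio was -0.06 for the members and -0.06 for all genes. The 3 higher members had few UMIs. Slc2a1 went from 39 to 60 UMIs, with a log2 ratio of 0.59 [-0.01 to 1.21]. Slc2a3 went from 8 to 15 UMIs, a ratio of 0.88 [-0.45 to 2.32]. Adm went from 11 to 22 UMIs, a ratio of 0.97 [-0.13 to 2.16], which turned to -0.24 when the mean of single-cell CPM was used. All 3 intervals reach below 0. Every counted member of the upper and lower pathway, the HIF alpha genes and the prolyl hydroxylases stayed within 1.5-fold in EC-like cells.

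In SMC-like cells, 0 of 32 counted members were higher and 2 lower, against 5.15% of all genes higher and 4.82% lower. Slc2a3 stood at 9.01 and 4.31 CPM, a log2 ratio of -1.07 [-1.88 to -0.28]. Bnip3 stood at 36.3 and 23.8 CPM, a ratio of -0.61 [-0.96 to -0.26]. In fibroblast-like cells, 0 of 32 were higher and 1 lower, against 5.88% and 5.83% of all genes. That member, Pfkm, had 142 and 100 UMIs and a ratio of -0.59 [-0.98 to -0.21].

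In monocyte/macrophage-like cells, 0 of 32 counted members were higher and 2 lower, against 9.06% of all genes higher and 4.36% lower. Slc2a3 stood at 7.45 and 3.3 CPM, a log2 ratio of -1.18 [-1.74 to -0.62], and P4ha2 at 2.39 and 1.2 CPM, a ratio of -0.99, with an interval that ends at -0.03. Smaller differences ran mostly one way: 27 of the 32 members had a ratio below 0, with a median of -0.21 against -0.05 for all genes. The share of all genes below 0 was not counted. Ratios below 0 were also the larger part in T/NK-like (19 of 22), B-cell-like (13 of 17) and SMC-like cells (23 of 32). There the median was -0.23 (members) against -0.05 (all genes), -0.26 against -0.09 and -0.08 against -0.03. Ratios below 0 numbered 23 of 32 in fibroblast-like, 20 of 28 in dendritic-like and 18 of 28 in EC-like cells. In these classes the members' median was near that of all genes: -0.08 and -0.08, -0.11 and -0.12, and -0.06 and -0.06. The counts there are therefore not read as a trait of the members. The Fabp5/Spp1-led cluster (15 of 30) and neutrophil-like cells (14 of 29) were split about evenly. Cells were also spread differently over macrophage states, described below and drawn from monocyte/macrophage-like cells and the Fabp5/Spp1-led cluster together. The Lyve1/Cd163 state, in which most members were low, had 105 control and 283 knockout cells, the interferon-responding state 126 and 404, Fabp5/Hmox1 596 and 339, Ccl24/Fn1 317 and 433 and Chil3/Vcan 370 and 385. Within a state, the members' median ratio was 0.08 in Lyve1/Cd163, -0.18 in interferon-responding, 0.05 in Fabp5/Hmox1, 0.02 in Ccl24/Fn1 and -0.11 in Chil3/Vcan cells. The part of the state shares in the class's ratio was not tested. In the Fabp5/Spp1-led cluster 1 of 30 was higher and 0 lower, against 4.51% and 6% of all genes. Ankrd37 had 17 and 31 UMIs there and a ratio of 1.33 [0.43 to 2.27].

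In neutrophil-like cells, 3 of 29 counted members were higher and 2 lower, against 8.93% of all genes higher and 10.9% lower. Gpi1, the enzyme after hexokinase, stood at 127 and 79.3 CPM, a log2 ratio of -0.68 [-0.94 to -0.41]. Pfkl had 46 and 29 UMIs and a ratio of -0.77 [-1.49 to -0.07]. Ankrd37 stood at 8.44 and 18.4 CPM, a ratio of 1.13 [0.35 to 1.96], and Pdk1 had 10 and 24 UMIs and a ratio of 1.16 [0.04 to 2.39]. Epas1 had 9 and 15 UMIs in these cells, a ratio of 0.63 [-0.65 to 2.01] that turned to -0.1 once free RNA was subtracted. Neutrophil-like cells were also spread differently over their subclusters, the groups from which states are named below. Of those without a state name, subcluster 4 had 70 and 154 cells, subcluster 5, led by Ifit3 and Ifit1, 58 and 155, and subcluster 0 444 and 397. Subcluster 4 had the highest member share of the neutrophil subclusters, 0.623% and 0.557%. The part of this spread in the class's ratios was not tested.

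The smaller classes had larger shares past the limit for members and all genes alike. In dendritic-like cells, 2 of 28 counted members were higher and 3 lower, where 22.1% of all genes passed in either direction. Aldoc had 23 and 8 UMIs there. Ndrg1 stood at 32.3 and 58.4 CPM, a log2 ratio of 0.86 [0.34 to 1.39]. In T/NK-like cells, 1 of 22 was higher and 3 lower, where 23.6% of all genes passed. Slc2a3 stood at 92.7 and 32.2 CPM in T/NK-like cells, from 44 and 18 UMIs, a ratio of -1.52 [-2.40 to -0.70]. In B-cell-like cells, 1 of 17 was higher and 5 lower, where 25.3% of all genes passed. Pfkp had 22 and 12 UMIs and Pgk1 20 and 12 UMIs in B-cell-like cells. With B-cell-like cells limited to those with Xist and no Y-linked UMIs, 46 and 71 cells, 1 member passed in place of 6. Slc2a3 was thus lower past the limit in SMC-like, monocyte/macrophage-like and T/NK-like cells and higher in EC-like and dendritic-like cells, where its counts were 8 and 15 and 11 and 21 UMIs. In dendritic-like cells limited to those with Xist and no Y-linked UMIs, its ratio of 0.77 turned to -0.38.

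**Figure D3:**
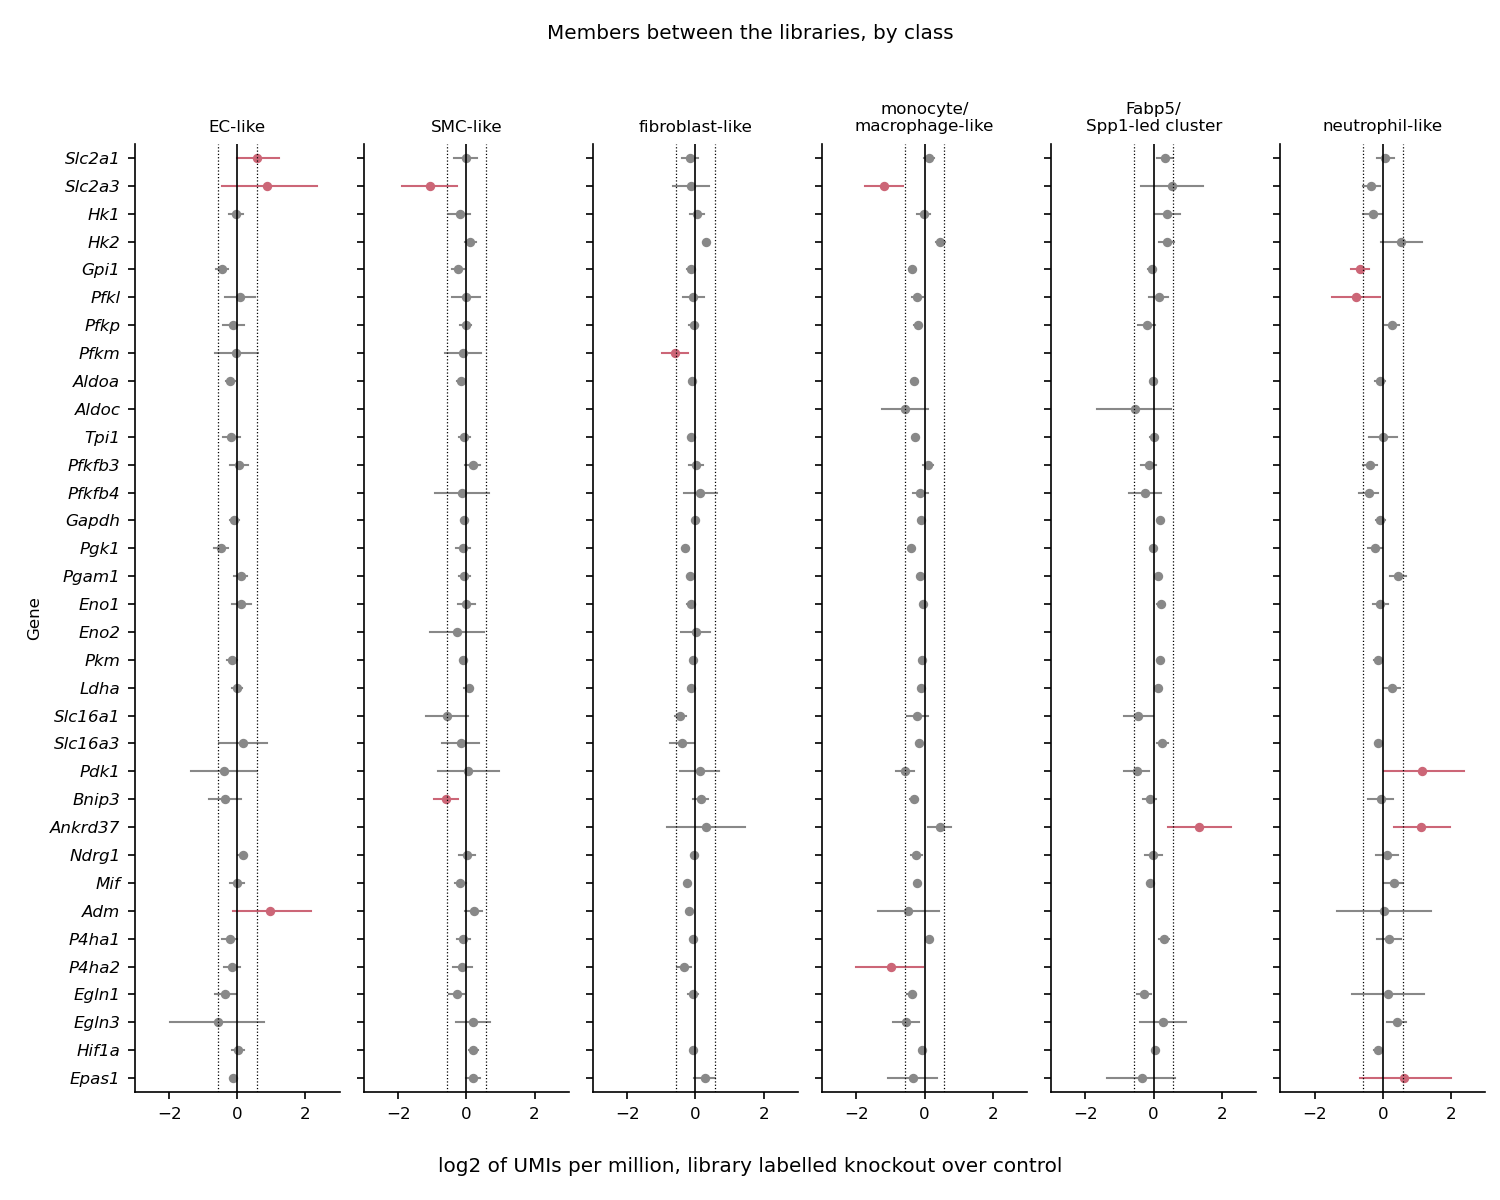
Log2 ratio of the library labelled knockout over the library labelled control for each counted member in 6 cell classes; lines are 95% counting intervals and coloured points lie past 1.5-fold. Most members lie near 0, and Slc2a3 lies at -1.07 in SMC-like and -1.18 in monocyte/macrophage-like cells.

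The other genes of these pathways were given by 5 lists with no member in common with the 34 genes. Their counts are read against the 4.45% of all genes higher and 6.17% lower in EC-like cells. In EC-like cells, of the other hypoxia-induced genes 1 of 23 counted was higher (Stc1, with 8 and 15 UMIs), and 0 of 12 HIF partners and regulators, such as Arnt and Vhl, passed in either direction. Of the other glycolysis isoforms 2 of 7 were higher: Eno1b, with 6 and 16 UMIs that are not told from those of Eno1 with certainty, and Ldhb, at 3.44 and 8.67 CPM, a log2 ratio of 1.33 [0.41 to 2.34]. Of 28 genes of pyruvate entry and the tricarboxylic acid cycle 2 were lower, Pdk3 and Pdk4, both kinases that restrain pyruvate dehydrogenase. Pdk4 stood at 26.0 and 16.4 CPM, a ratio of -0.67 [-1.13 to -0.22]. None of the 8 genes of the pentose phosphate pathway passed in EC-like, SMC-like, fibroblast-like, monocyte/macrophage-like or neutrophil-like cells.

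Among the other hypoxia-induced genes in the remaining large classes, 0 of 27 counted in SMC-like cells were higher and 2 lower (5.15% and 4.82% of all genes). In fibroblast-like cells 0 of 27 were higher and 1 lower (5.88% and 5.83% of all genes), and in monocyte/macrophage-like cells 1 of 25 was higher and 0 lower (9.06% and 4.36%). In the Fabp5/Spp1-led cluster 3 of 23 were higher (Edn1, Tfrc and Angptl4) and 2 lower (Ccng2 and Rora), against 4.51% and 6%. Edn1, which encodes the vasoconstrictor endothelin-1, was lower in SMC-like cells, at 10.2 and 4.49 CPM, a log2 ratio of -1.19 [-1.97 to -0.43], and in fibroblast-like cells, at 21.1 and 13.6 CPM, a ratio of -0.64 [-0.90 to -0.38]. In EC-like cells, the class where Edn1 was highest, Edn1 stood at 344 and 422 CPM. It ran the other way in the Fabp5/Spp1-led cluster, at 1.66 and 6.35 CPM (9 and 25 UMIs), a ratio of 1.93 [0.79 to 3.22], and in dendritic-like cells, at 11.0 and 18.5 CPM (16 and 30 UMIs), a ratio of 0.75 [-0.17 to 1.72]. In neutrophil-like cells 6 of 22 were higher (Hilpda, Higd1a, Tfrc, Fam162a, Gbe1 and Gys1) and 2 lower (Plod1 and Ccng2), against the 8.93% and 10.9% of all genes given above. Hilpda, a lipid droplet protein gene, had 105 and 240 UMIs in neutrophil-like cells, or 44.3 and 94.2 CPM, a ratio of 1.09 [0.75 to 1.43]. Ccng2, a cyclin gene, stood at 49.4 and 25.9 CPM there, a ratio of -0.93 [-1.39 to -0.48]. The part of the uneven spread over neutrophil subclusters, given above, was not tested for these genes either.

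States within the macrophage, neutrophil and fibroblast classes were subclusters named from marker genes, again without the members as clustering genes. Macrophage states were drawn from the monocyte/macrophage-like cells and the Fabp5/Spp1-led cluster together, and named states cover only part of each class. A member was counted as higher or lower in a state where its level differed past 1.5-fold from the summed other named states of its class, in the same direction in both libraries. These comparisons carry no test, because the same cells defined the states. Each state is also part of what the other states of its class are set against, so opposite ratios are partly built in.

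The Lyve1/Cd163 state, named for markers of resident macrophages, had 105 and 283 cells and stood apart from the other named states. Of 30 counted members 21 were lower and 2 higher there, while 13.4% of all genes were lower and 21.3% higher. The members' median log2 ratio to the other states was -1.75 (control) and -1.76 (knockout), against 0.10 and 0.06 for all genes. Hif1a stood at 224 CPM against 1380 in the other states in the control library, and at 195 against 1420 in the knockout library, log2 ratios of -2.62 and -2.87. Slc16a3 stood at 12.3 against 228 CPM and at 12.4 against 241 CPM, ratios of -4.20 and -4.29. The enzymes Gpi1, Pfkl, Aldoa, Tpi1, Gapdh, Pgk1, Pgam1, Eno1, Pkm and Ldha were lower, from Gpi1 at -0.65 and -0.76 to Eno1 at -3.20 and -3.03, with Ldha at -2.48 and -2.52. Slc2a1 (-2.56 and -3.80), Hk2, Pfkfb4, Pdk1, Bnip3, Egln1, Egln3, Ndrg1 and Mif were lower as well. Pfkfb3 ran the other way, at 196 against 71.0 CPM and 227 against 62.8 CPM, ratios of 1.46 and 1.85, and Slc2a3 was the other higher member, on 10 UMIs in each library. Depth and the mitochondrial share moved with this state: its cells had a median of 3734 and 4008 UMIs and 4.20% and 3.63% mitochondrial UMIs, against medians between 6417 and 8300 UMIs and between 1.14% and 1.55% in the other named macrophage and monocyte states. Their part in the result was not tested. A low share of member UMIs, 0.228% and 0.235% in this state, was not particular to it. Macrophage subcluster 8, without a state name and led by Adgre4 and Ace, had 0.327% and 0.315%. Its median depth was 6882.5 and 6297 UMIs. Subcluster 7, left unnamed as shallow, had 0.38% and 0.29%. The unnamed subclusters 1, 5 and 9 lay between 0.503% and 0.89%.

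The Ccl24/Fn1 state, named for markers of recruited macrophages, had 317 and 433 cells and the highest share of member UMIs among the named states, at 1.04% and 1.03%. Of 30 counted members 9 were higher and 0 lower, against 3.59% and 9.55% of all genes. Vegfa, one of the other hypoxia-induced genes listed, was among the leading genes of this state. Only the members and Gja1 were kept out of the clustering genes. The state may therefore be drawn in part by hypoxia-induced genes, which was not tested. Slc2a1 stood at 115 against 58.7 CPM in the control library and at 139 against 65.5 CPM in the knockout library. Pgk1 stood at 1070 against 647 CPM and 973 against 528 CPM, log2 ratios of 0.72 and 0.88. Aldoa stood at 899 against 573 CPM and 797 against 493 CPM. Egln3, at 17.2 against 7.67 and 14.5 against 6.87 CPM, and Ldha, Tpi1, Pfkl, Pfkfb4 and Mif made up the rest.

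The other 3 macrophage and monocyte states differed less. In the Chil3/Vcan state (370 and 385 cells), named for markers of inflammatory monocytes, 1 of 30 was higher and 1 lower, against 5.1% and 12.5% of all genes. Pfkp was the higher one, at 142 against 84.6 CPM and 150 against 77.7 CPM, and Ndrg1 the lower one. In the Fabp5/Hmox1 state (596 and 339 cells), named for lysosomal macrophage markers, 0 of 30 were higher and 4 lower, against 6.36% and 8.95% of all genes. Slc16a3 stood there at 125 against 275 CPM and 156 against 236 CPM, and Pfkp, Pfkfb4 and Ankrd37 were the other 3, where Pfkfb4 in the knockout library went from -0.74 to 0.01 at resolution 0.3. In the interferon-responding state (126 and 404 cells), 1 of 30 was higher and 2 lower, against 4.36% and 7.89% of all genes. Hk1 stood at 55.1 against 27.0 CPM and 48.4 against 29.9 CPM. Slc16a1 and Slc2a3 were the lower ones. Slc2a3 had 3 and 8 UMIs, and its ratio in the control library, -1.21, turned to 0.71 at a coarser (0.3) and to 0.68 at a finer (1.0) clustering resolution. Over the alternatives run, the members past the limit numbered 1 to 6 in the Chil3/Vcan, 2 to 7 in the Fabp5/Hmox1 and 1 to 4 in the interferon-responding state.

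In neutrophil-like cells, the Retnlg/Lcn2 state of 115 and 134 cells, named for mature neutrophil markers, was set against the Hcar2/Ccl3 state of 405 and 450 cells, named for activation. Of 23 counted members 5 were higher in the Retnlg/Lcn2 state and 3 lower, against 17.2% and 25.7% of all genes. Gpi1 stood at 324 against 79.4 CPM in the control library and 149 against 53.4 CPM in the knockout library, log2 ratios of 2.03 and 1.48. Slc16a3 stood at 824 against 398 CPM and 589 against 360 CPM. Hif1a stood at 631 against 365 CPM and 609 against 254 CPM, and Slc2a1 and Slc2a3 were higher too. The ratio of Slc2a3 in the control library, 1.01, turned to -0.14 with doublets kept. The count of 8 members was 5 with at least 100 UMIs and 13 with at least 1 UMI. Hk1, Pfkp and P4ha1 were the lower members, each on at most 22 UMIs in the Retnlg/Lcn2 state.

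Among fibroblasts, the Inhba/Tnc state of 133 and 159 cells, named for activation, had 12 of 31 counted members higher and 5 lower, against 18.9% and 16.8% of all genes. Mif stood at 887 against 350 CPM and 712 against 304 CPM, log2 ratios of 1.34 and 1.23. Pfkl stood at 23.9 against 8.49 CPM and 25 against 7.88 CPM. The lower glycolysis enzymes Gapdh, Pgk1, Pgam1, Eno1 and Pkm, and also Ldha, Slc16a3, Slc2a1, Slc2a3 and Hif1a, were higher, with Pkm at 379 against 192 CPM and 377 against 176 CPM. Adm was far lower, at 22.1 against 317 CPM and 12.5 against 272 CPM, ratios of -3.85 and -4.44. Epas1, Pdk1, Pfkfb3 and Bnip3 were also lower. Of the members grouped as other HIF targets, Mif was thus higher and Adm and Bnip3 lower in this state. The 5 of 31 lower members were near the 16.8% of all genes.

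The Pi16/Cd34 state of 208 and 285 cells, named for adventitial markers, had 1 of 31 members higher and 11 lower, against 8.51% and 15% of all genes. Many lay on the other side in the Inhba/Tnc state, which is partly built in, since each state is in the other's comparison. Adm was the higher one, at 600 CPM [573 to 627] in the control library against 116 in the other named states, and at 393 against 122 in the knockout library, log2 ratios of 2.37 and 1.69. Ldha stood at 179 against 419 CPM and 213 against 388 CPM. Hif1a stood at 230 against 453 CPM and 214 against 506 CPM, and Pfkl, Mif, Pgk1, Slc16a1, Slc16a3, Slc2a1, Pfkfb3, Eno1 and Pkm were lower too. The state had a median of 13134 and 13778 UMIs per cell.

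In the Sfrp2/Comp state of 241 and 243 cells, named for matrix genes, 0 of 31 were higher and 7 lower, against 11.6% and 11.2% of all genes. Hk2 stood there at 97.5 against 199 CPM and 148 against 242 CPM, and Mif at 231 against 520 CPM and 211 against 419 CPM. Slc16a1, Pgam1, Adm, Pfkl and Pfkfb4 were the other lower ones. The count of 7 was 11 with free RNA subtracted and 19 at state resolution 0.3, and Pfkfb4 in the control library, at -0.84, turned to 0.21 with the mean single-cell CPM and to 0.22 at that resolution. Adm was lower in this state, with ratios of -1.26 and -0.74, and at a coarser clustering (resolution 0.3), which did not separate the Pi16/Cd34 state, its ratios were 1.46 and 1.87. In the Sfrp4/Cxcl5 state of 269 and 241 cells, named for inflammatory markers, 3 of 31 were higher and 2 lower, against 2.13% and 15% of all genes. Slc16a1 stood at 75.1 against 39.1 CPM and 55.0 against 28.7 CPM, Hif1a at 519 against 334 CPM and 533 against 352 CPM, and Pfkfb3 at 46.6 against 27.5 CPM and 40.6 against 26.3 CPM. The count of 5 members there ranged from 2 to 8 over the alternatives run.

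**Figure D4:**
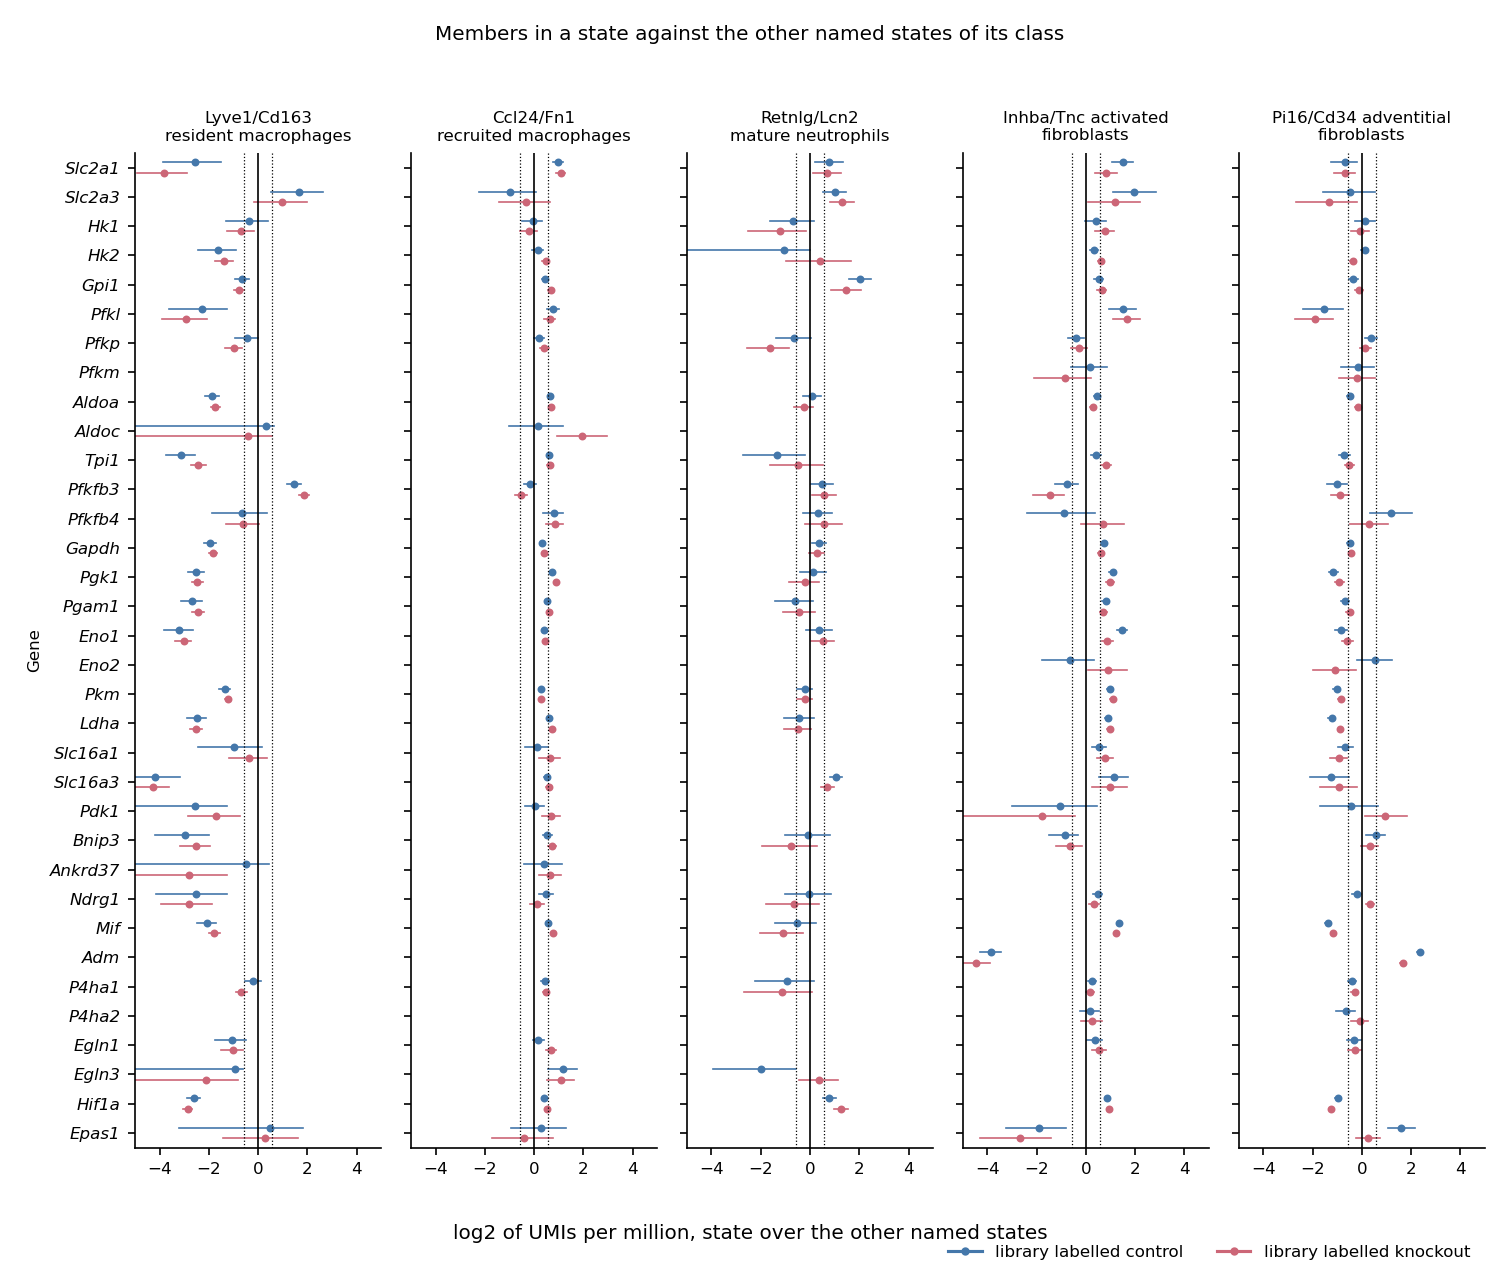
Log2 ratio of each counted member in 5 states to the other named states of the same class, within the library labelled control and within the library labelled knockout; lines are 95% counting intervals. Most members lie below 0 in the Lyve1/Cd163 state, and Adm lies at -3.85 and -4.44 in the Inhba/Tnc state and at 2.37 and 1.69 in the Pi16/Cd34 state.

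Between the libraries, the members were also compared within each state. In the Chil3/Vcan state 0 of 28 were higher and 2 lower (14.4% of all genes passed in either direction), with Slc2a3 at 11.1 and 5.35 CPM. In the Ccl24/Fn1 state 2 of 28 were higher and 0 lower (12.7% of all genes), with Hk2 at 85.1 and 149 CPM, a log2 ratio of 0.81 [0.56 to 1.06], and Ankrd37 at 8.81 and 19.5 CPM, a ratio of 1.14 [0.40 to 1.95]. In the Fabp5/Hmox1 state 1 of 30 was higher and 1 lower (11.5% of all genes), Ankrd37 at 2.69 and 7.99 CPM being the higher. In the interferon-responding state 1 of 27 was higher and 5 lower (27.2% of all genes), with Egln1 at 86.4 and 45.7 CPM and Gpi1 at 294 and 181 CPM. In the Lyve1/Cd163 state 2 of 22 were higher and 1 lower (22.6% of all genes), with Hk2 at 26.4 and 48.0 CPM.

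Of 20 members counted in the Retnlg/Lcn2 state 1 was higher and 5 lower (22.9% of all genes). Gpi1 stood there at 324 and 149 CPM, a log2 ratio of -1.12 [-1.67 to -0.60], and Egln3 at 13.5 and 66.2 CPM, a ratio of 2.29 [0.72 to 4.30]. In the Hcar2/Ccl3 state 1 of 25 was higher and 1 lower (23.2% of all genes), with Pfkfb4 at 94.2 and 51.3 CPM. Of the fibroblast states, Sfrp4/Cxcl5 had 1 of 30 higher and 1 lower (15.1% of all genes), with Epas1 at 3.89 and 10.6 CPM. Inhba/Tnc had 2 of 29 higher and 4 lower (16.5% of all genes), with Pfkfb3 at 21.1 and 12.0 CPM. Sfrp2/Comp had 5 of 28 higher and 0 lower (14.4% of all genes): Slc2a1, Hk2, Eno1, Hif1a and Epas1, with Hk2 at 97.5 and 148 CPM and Hif1a at 236 and 353 CPM. Pi16/Cd34 had 1 of 30 higher and 3 lower (12.4% of all genes), with Adm at 600 and 393 CPM, a ratio of -0.61 [-0.71 to -0.52], and Slc16a1 at 34.8 and 22.3 CPM. Hk2 was higher past the limit in the library labelled knockout in 3 of the 11 states, and Ankrd37, a gene of low level, in 4 of them. Such repeats were not counted over all genes, so these 2 counts are not read as a result.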

How the data were processed

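The deposited values were UMI counts per gene and barcode, made by the authors with Cell Ranger 8.0.1 per the file headers; STAR, with no version given, and mm10 come from the submitters' processing notes. Barcodes under 300 genes or over 15% mitochondrial UMIs were dropped, and likely doublets, ranked against simulated ones, were removed at an assumed rate (363 control and 476 knockout barcodes). The 2000 most variable genes, without the members, gave 30 principal components, a graph of 20 neighbours and 23 Leiden clusters at resolution 1.0 (0.6 for states). A cluster was named from its markers, with at least 3 detected in 10% of cells, unless markers of another type led it or it was shallow. UMIs were added up by class and library, then divided by the class total (CPM), with exact Poisson intervals and conditional binomial intervals of ratios at 95%. A gene with under 3 UMIs on one side of a ratio took 3 there, so its point may lie outside its interval. Higher and lower mean a log2 ratio past 0.58 or -0.58, without any test. Intervals cover counting error only, not spread between animals. The named genes were the members and 5 pathway lists; members, lists and markers were chosen with earlier results of these data known. In the free RNA estimate, Ebf1 and Thy1 were left out after their values were seen. Ratio counts were checked on simulated data. Total depth was 48862850 UMIs (control) and 54392831 UMIs (knockout). Clustering used leidenalg 0.10.2 with igraph 0.11.9 and scikit-learn 1.9.0, statistics SciPy 1.17.1 and NumPy 2.4.6, and figures matplotlib 3.10.9, all under Python 3.11.15 with pandas 2.3.3. Alternatives for the cell limits, doublets, clustering, UMI minimum, scaling, averaging, free RNA and sex were tried.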

Additional observations from a re-analysis of the deposited data

How the results depend on the processing

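No paired analysis was possible because each group had 1 library. Counts past 1.5-fold rest on few UMIs in the smaller classes, and depth limits calls most for members near 20 UMIs. Over the alternatives, members past the limit numbered 22 to 26 in the Lyve1/Cd163 state (23 as reported), 14 to 19 in Inhba/Tnc (17), 9 to 15 in Pi16/Cd34 (12) and, under the 8 alternatives with a value, 8 to 12 in Ccl24/Fn1 (9). Between libraries, Slc2a3 kept its direction in SMC-like (-1.19 to -0.82), monocyte/macrophage-like (-2.39 to -0.69) and T/NK-like cells (-1.62 to -0.53), and Gpi1 in neutrophil-like cells (-1.12 to -0.49). The cause of the changes below was not tested, except that the UMI minimum and the cell subsets change how many genes or cells enter.

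With at least 500 genes per cell, members past the limit between libraries numbered 1 in SMC-like cells (2 as reported), 0 in fibroblast-like cells (1) and 3 in the Fabp5/Spp1-led cluster (1), where pathway genes numbered 3 (7); the Chil3/Vcan state had 6 (2). A mitochondrial limit of 25% gave 0 in fibroblast-like cells and 2 in the Fabp5/Spp1-led cluster. With doublets kept, fibroblast-like cells had 0, monocyte/macrophage-like cells 4 (2) with 5 pathway genes (2), neutrophil-like cells 3 (5), dendritic-like cells 3 (5) and T/NK-like cells 9 (4) with 5 pathway genes (17); the Chil3/Vcan state had 4 and Fabp5/Hmox1 2 (4). P4ha1 in B-cell-like cells then went from -0.89 to 0.0, and Slc2a3 in the Retnlg/Lcn2 state of the control library from 1.01 to -0.14. With members among the clustering genes, fibroblast-like cells had 0, monocyte/macrophage-like cells 6 and the Sfrp4/Cxcl5 state 2 (5).

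With at least 100 UMIs, members numbered 0 in EC-like cells (3), 1 in SMC-like, 1 in monocyte/macrophage-like, 0 in the Fabp5/Spp1-led cluster, 1 in neutrophil-like, 2 in dendritic-like, 1 in T/NK-like, 0 in B-cell-like cells (6) and 5 in the Retnlg/Lcn2 state (8). Pathway genes then numbered 1 in EC-like (5), 1 in SMC-like (4), 1 in fibroblast-like (3), 0 in monocyte/macrophage-like, 2 in the Fabp5/Spp1-led cluster, 5 in neutrophil-like (12), 4 in dendritic-like (11), 1 in T/NK-like and 1 in B-cell-like cells (10). With at least 1 UMI, members numbered 6 in EC-like, 2 in fibroblast-like, 4 in the Fabp5/Spp1-led cluster and 13 in Retnlg/Lcn2, and pathway genes 8 in EC-like, 7 in SMC-like, 4 in monocyte/macrophage-like, 11 in the Fabp5/Spp1-led cluster, 18 in dendritic-like, 28 in T/NK-like and 19 in B-cell-like cells.

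Median-of-ratios scaling gave 1 member in SMC-like cells, 0 in fibroblast-like cells, 2 in the Fabp5/Spp1-led cluster, 1 in the interferon-responding state (3) and 8 in Sfrp4/Cxcl5. The mean single-cell CPM gave 4 members in fibroblast-like cells, 5 in monocyte/macrophage-like cells, 4 in the Fabp5/Spp1-led cluster, 8 in T/NK-like cells and 6 in Chil3/Vcan, and 8, 9 and 4 pathway genes in EC-like, fibroblast-like and monocyte/macrophage-like cells. Under it Adm in EC-like cells went to -0.24, P4ha1 in B-cell-like cells to 0.07 and Pfkfb4 in the Sfrp2/Comp state of the control library from -0.84 to 0.21. With free RNA subtracted, members numbered 3 in fibroblast-like cells, 4 in monocyte/macrophage-like cells with 4 pathway genes, 2 in the Fabp5/Spp1-led cluster, 4 in Chil3/Vcan and 11 in Sfrp2/Comp (7), and Epas1 in neutrophil-like cells went to -0.1. At class resolution 2.0, monocyte/macrophage-like cells and the Fabp5/Spp1-led cluster had 4 members each.

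In cells with Xist and no Y-linked UMIs, members numbered 4 in fibroblast-like cells, 3 in the Fabp5/Spp1-led cluster, 3 in dendritic-like and 1 in B-cell-like cells, and pathway genes 8 in EC-like, 7 in SMC-like, 8 in fibroblast-like, 4 in monocyte/macrophage-like and 11 in T/NK-like cells. Slc2a3 in dendritic-like cells then went from 0.77 to -0.38 and Pkm in B-cell-like cells from -0.61 to 0.09. At state resolution 0.3, members numbered 1 in Chil3/Vcan, 2 in Fabp5/Hmox1, 1 in interferon-responding and 19 in Sfrp2/Comp. Pfkfb4 in the Fabp5/Hmox1 state of the knockout library went to 0.01, Slc2a3 in the interferon-responding state of the control library to 0.71, Pfkfb4 in Sfrp2/Comp of the control library to 0.22, and Adm in Sfrp2/Comp to 1.46 and 1.87. At state resolution 1.0, Fabp5/Hmox1 had 7 and Sfrp4/Cxcl5 3, and Slc2a3 in the interferon-responding state of the control library was 0.68. The Ccl24/Fn1 state had no value with at least 500 genes, doublets kept or state resolution 0.3, the interferon-responding state none with at least 500 genes or members among the clustering genes, and Sfrp4/Cxcl5 and Pi16/Cd34 none at state resolution 0.3.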

Other observations

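A neutrophil subcluster without a state name (subcluster 4, led by Slc24a3, Cnnm2 and Slc27a4; 70 control and 154 knockout cells), chosen after its values were seen, held high levels of several members. Slc16a3 stood there at 1242 and 985 CPM, against 601 and 549 in all neutrophil-like cells. Egln3 stood at 261 and 249 CPM, against 73.8 and 97.7. Pfkp stood at 255 and 278 CPM, against 143 and 172. Its median depth was 2563 and 1869.5 UMIs per cell.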
